A study of Rattus norvegicus with 12 samples.

Results

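The 8 enzymes Tdo2, Afmid, Kmo, Kynu, Haao, Aadat, Acmsd and Qprt break down tryptophan through kynurenine, and their mRNAs were followed in rat liver on expression arrays. They are 8 of the 14218 genes that had a probe set annotated to exactly 1 symbol, and 11 such probe sets measured them. The members were selected on the difference between livers of rats given a herbal decoction on a high-fat diet (QHD) and of rats on that diet alone (HFD), in which Kynu had been seen lower and Afmid higher, and the other enzymes of the route were taken with them. Values of that contrast are therefore a description with no test. Liver RNA came from Sprague-Dawley rats, each animal on an array of its own, and 4 groups had 3 animals each. QHD rats ate a high-fat diet for 4 weeks and then had Qushi Huayu Decoction, a Chinese herbal medicine, by gavage each day at 0.1 ml/kg for 4 more weeks while the diet went on. GC rats had a mixture of geniposide and chlorogenic acid, both plant compounds, on the same schedule, at a dose that the labels do not state. HFD rats ate the high-fat diet alone, and normal rats ate a normal diet. The titles state 4 weeks for every group, and neither age nor sex, nor how long the HFD group had eaten its diet in all, is stated. Since the dose of GC is unknown, QHD and GC values stand side by side for rats treated differently, not for matched doses.

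In liver, Tdo2 opens the indole ring of tryptophan and sets the pace of its breakdown, and Afmid removes the formyl group to give kynurenine. Kynurenine is then hydroxylated by Kmo, cleaved by Kynu, or turned into kynurenic acid by Aadat and other aminotransferases. Kynu also cleaves the product of Kmo, and Haao opens the ring of the resulting hydroxyanthranilate. The open product either closes by itself to quinolinate, which Qprt carries on towards NAD, or is drawn off by Acmsd towards complete oxidation.

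The array labelled normal 3 did not carry a liver profile and was left out by the rule that defines the members. On it the 13 measured hepatocyte markers had a median log2 signal of 6.28, while the other 11 arrays had 14.63 to 15.12. For 8 adipocyte markers the median was 14.12 on normal 3, while the 11 arrays had 5.28 to 7.03. All 11 probe sets of the members stood lower on it than on any other array, by 2.29 to 8.89 on the log2 scale. The normal group therefore has 2 animals throughout. The number of arrays limits precision. The median log2 signal of the 11 arrays was 6.62 to 6.87, and a gene was tested when its mean over them exceeded 6.66, the median over all probe sets. All 8 members passed this filter, and the probe set with the highest mean stands for each gene. Each value is a log2 signal or a difference of log2 signals unless a fold is named. In bulk liver, fewer cells of a type and less RNA per cell cannot be told apart.

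**Figure D1:**
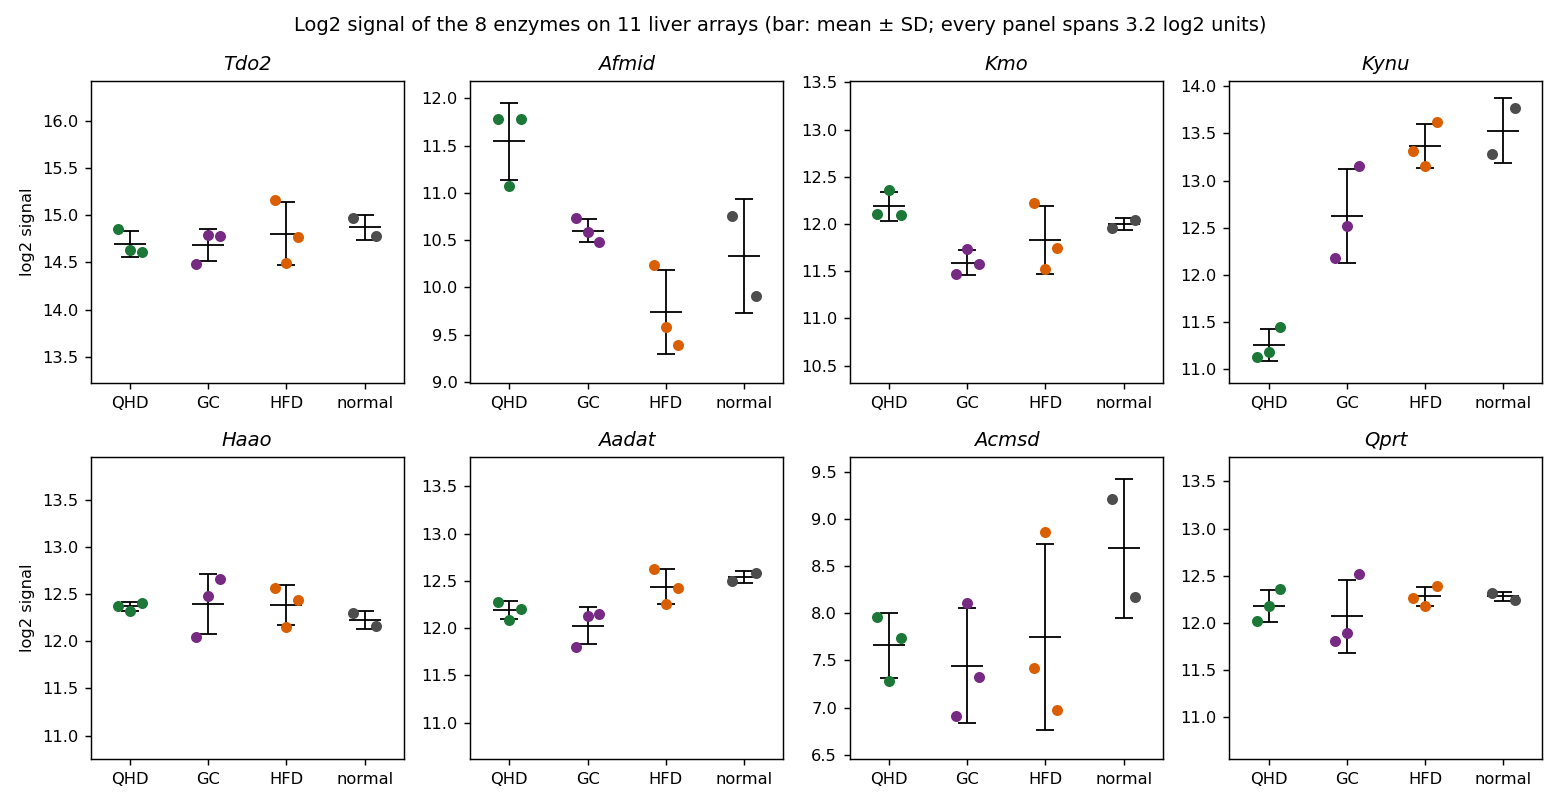
Log2 signal (vertical axis) of each enzyme on the 11 liver arrays, by group: QHD, GC, HFD and normal. Points are animals and bars are the mean ± SD. The QHD livers lie at 11.13 to 11.45 for Kynu, below every other liver, and at 11.07 to 11.78 for Afmid, above every other liver, while for Tdo2 and Qprt the groups overlap in all 6 comparisons.

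Livers of QHD rats had less Kynu mRNA and more Afmid mRNA than livers of the other groups, and the group means of the other 6 enzymes lay closer together, apart from Acmsd, which scattered widely. Between QHD and HFD, 2 of the 8 enzymes had groups that did not overlap, Kynu lower and Afmid higher, and of all 9459 genes 17.5% had such groups. That contrast served to choose the members, and limma called 0.560% of all genes in it. Between QHD and GC limma called 1 of 8 members, Kynu, which fell, and 0.275% of all genes. Between QHD and normal it called 2 of 8, Kynu lower and Afmid higher, and 7.46% of all genes. Between GC and normal it called 1 of 8, Aadat, which fell, and 9.61% of all genes, so that 1 member in 8 is close to the background there. No member passed between GC and HFD, where limma called 0.0951% of genes, and 3 of 8 members had an unadjusted p under 0.05 as did 8.76% of all genes. None passed between HFD and normal either, where limma called 0.529% of genes, and 0 of 8 members had an unadjusted p under 0.05 against 14.4% of all genes. A gene is said to pass, rise or fall where limma's p, after Benjamini-Hochberg adjustment across the 9459 genes, is under 0.05. All 6 comparisons share groups of arrays and are not independent of each other. Other comparisons with QHD or HFD reuse arrays of the contrast on which Kynu and Afmid were chosen. Their p-values for these genes are not independent of that choice.

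Groups did not overlap for 3 of 8 members between QHD and GC (background 18.5%), for 2 of 8 between GC and HFD (background 13.5%) and for 0 of 8 between HFD and normal (background 28.3%). Against the 2 normal livers they did not overlap for 6 of 8 in QHD (background 43.6%) and for 4 of 8 in GC (background 43.9%). The median difference over the 8 members was -0.093 between QHD and HFD, beside 0.018 over all genes, and -0.22 between GC and HFD, beside 0.030. It was 0.14 between QHD and GC, beside -0.0091, and -0.14 between HFD and normal, beside 0.031. Against normal livers it was -0.14 in QHD, beside 0.054, and -0.31 in GC, beside 0.052. Single members ran from -2.11 for Kynu to 1.81 for Afmid between QHD and HFD, the differences that led to the choice of the members.

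**Figure D2:**
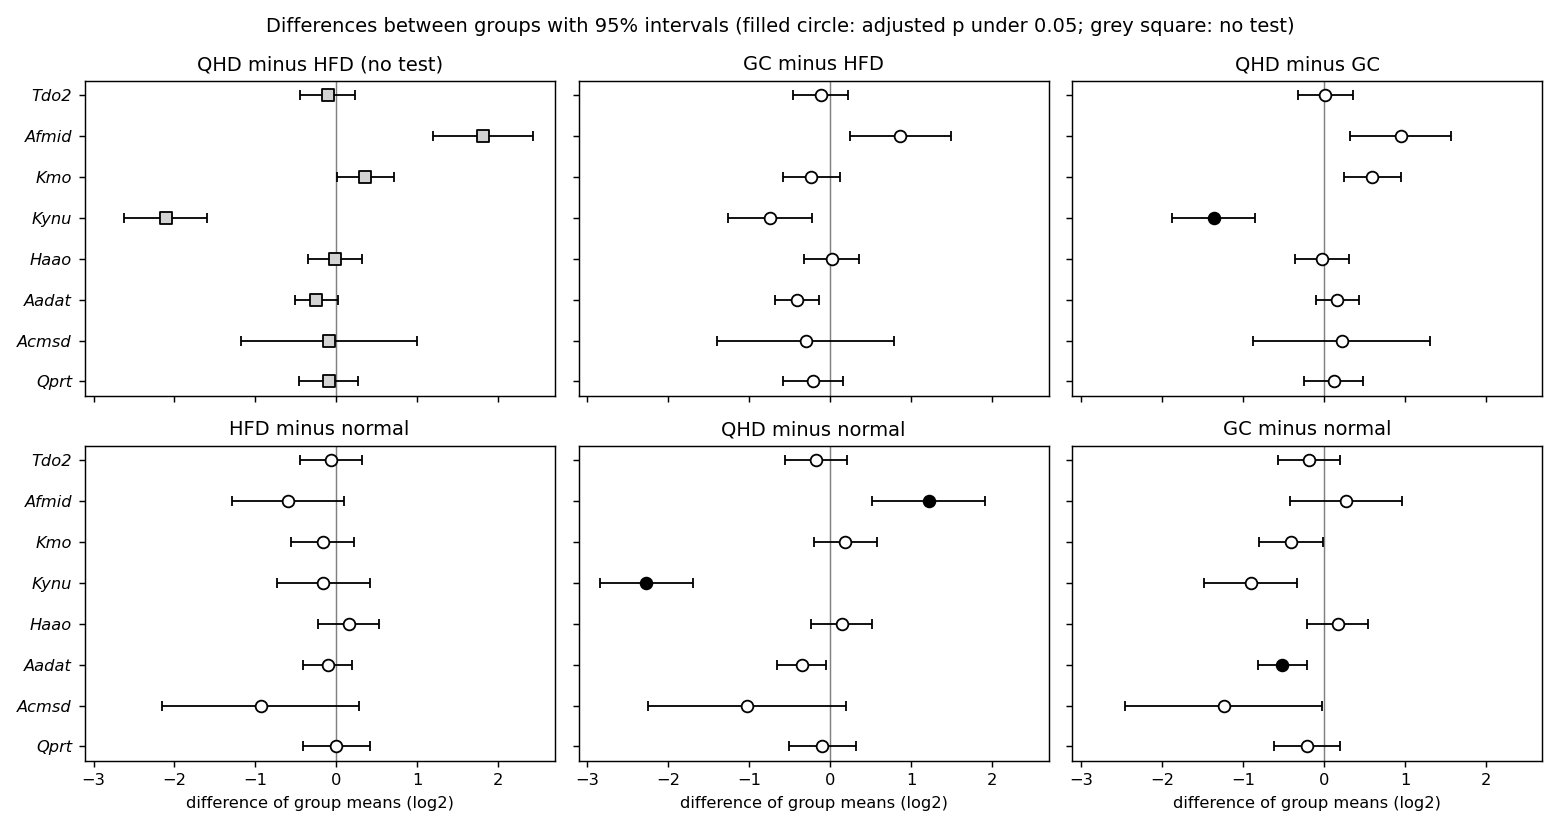
Differences of group means (horizontal axis, log2) for the 8 enzymes (rows) in the 6 comparisons (panels), with 95% intervals. Filled circles passed at an adjusted p under 0.05, open circles did not, and the grey squares of QHD minus HFD carry no test. Kynu lies at -2.11 and Afmid at 1.81 in that panel, whose intervals are not read as a test because the members were chosen on it. In the other panels the intervals of Tdo2, Haao and Qprt include 0.

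The bases before the gene starts of Kynu and Afmid are shown because these enzymes had the widest differences. Those of Qprt are shown as an enzyme of the same route whose groups overlapped on its probe set of highest mean. They are the 250 bases upstream of the start in RefSeq's table for GRCr8, for Kynu at chr3:48188036-48188285 on the plus strand, for Afmid at chr10:103544624-103544873 on the plus strand and for Qprt at chr1:191164007-191164256 on the minus strand, 5′ to 3′ on the strand of the gene. Capitals mark a match, on either strand, to GCGTG, the core that the aryl hydrocarbon receptor (AHR) binds, to TGACNNNGC, the core of the antioxidant response element, or to CACGTG, the E-box.
Kynu: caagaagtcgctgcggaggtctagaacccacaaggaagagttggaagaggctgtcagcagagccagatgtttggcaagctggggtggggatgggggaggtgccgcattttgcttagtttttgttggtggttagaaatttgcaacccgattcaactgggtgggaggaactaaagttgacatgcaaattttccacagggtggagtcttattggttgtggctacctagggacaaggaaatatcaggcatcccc
Afmid: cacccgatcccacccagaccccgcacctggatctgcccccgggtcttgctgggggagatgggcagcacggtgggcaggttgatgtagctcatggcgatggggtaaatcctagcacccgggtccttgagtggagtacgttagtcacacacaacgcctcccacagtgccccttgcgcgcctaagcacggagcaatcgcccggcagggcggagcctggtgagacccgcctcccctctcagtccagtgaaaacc
Qprt: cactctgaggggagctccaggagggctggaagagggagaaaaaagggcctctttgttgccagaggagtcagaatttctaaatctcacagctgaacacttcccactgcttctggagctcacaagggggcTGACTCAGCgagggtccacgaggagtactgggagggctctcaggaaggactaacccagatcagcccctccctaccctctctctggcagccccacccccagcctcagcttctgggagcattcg
The table held 7 of the 8 members. The antioxidant response core matched in 2 of them, Haao and Qprt, and in 10.1% of 33469 windows of this length. The AHR core matched in 1, Aadat, and in 25.9% of the windows, and the E-box in 0 of 7 and in 5.59%. A match describes letters only, and no match says no more than that these letters are not in this window.

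Tdo2, the first enzyme of the route, differed little between groups. It had 14.85, 14.63 and 14.61 in the QHD livers, 14.49, 14.79 and 14.78 in the GC livers, 15.16, 14.49 and 14.77 in the HFD livers and 14.97 and 14.78 in the normal livers. The groups overlapped in all 6 comparisons. The 95% interval of GC minus HFD was -0.46 to 0.22 and that of HFD minus normal -0.45 to 0.31. QHD minus GC was 0.012, with an interval of -0.33 to 0.35.

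Afmid, the formamidase that frees kynurenine, was highest in QHD. Its log2 signal was 11.78, 11.07 and 11.78 in the QHD livers, 10.73, 10.59 and 10.48 in the GC livers, 10.23, 9.58 and 9.39 in the HFD livers and 10.76 and 9.90 in the normal livers. The QHD livers lay above all others and every GC liver above every HFD liver. On the probe set used here 1 normal liver stood just above the GC livers and the other among the HFD livers. QHD minus HFD, the contrast on which Afmid was chosen, was 1.81 ± 0.28 (SE), 3.51-fold higher in QHD. Against normal livers Afmid rose in QHD by 1.21 ± 0.31 (SE, 2.32-fold, limma adjusted p = 0.0445, above both normal livers in 3 of 3), with the same QHD arrays on which it was chosen. That call was lost without QHD 45, QHD 47, GC 35, GC 37, GC 55, normal 2 or normal 4, and without normal 4 the difference was 0.79. QHD minus GC was 0.94 ± 0.28 (SE, limma adjusted p = 0.269) and GC minus HFD 0.87 ± 0.28 (SE, limma adjusted p = 0.419), and neither passed although the groups did not overlap. HFD minus normal was -0.60 ± 0.31 (SE, limma adjusted p = 0.432, 95% interval -1.29 to 0.098), and it was -0.17 without normal 2 and -1.02 without normal 4.

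Kynu, the kynureninase, which uses vitamin B6 as cofactor, showed the largest difference of the 8 between QHD and HFD. Its log2 signal was 11.13, 11.19 and 11.45 in the QHD livers, 12.18, 12.52 and 13.16 in the GC livers, 13.32, 13.16 and 13.62 in the HFD livers and 13.28 and 13.77 in the normal livers. All QHD livers lay below all others, and the GC livers lay between, with the highest of them level with the lowest HFD liver. The means were 11.26 ± 0.17 in QHD, 12.62 ± 0.50 in GC, 13.36 ± 0.24 in HFD (SD, n = 3 each) and 13.53 ± 0.35 in normal (SD, n = 2). QHD minus HFD, the contrast on which Kynu was chosen, was -2.11 ± 0.23 (SE), 4.31-fold lower in QHD. Against normal livers Kynu fell in QHD by 2.27 ± 0.26 (SE, 4.83-fold, limma adjusted p = 0.00215, below both normal livers in 3 of 3), with the same QHD arrays. The call held in all 15 other settings tried over the 11 arrays, where the difference ran from -2.52 to -2.03. With normal 3 included, where Kynu stood at 4.47, the difference was 0.75 (limma adjusted p = 0.865).

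Kynu was lower in QHD than in GC, by 1.36 ± 0.23 (SE, 2.57-fold, limma adjusted p = 0.0475, below all GC livers in 3 of 3), with the same QHD arrays on which it was chosen. The call was lost without QHD 45, QHD 46, QHD 47, GC 37, GC 55, HFD 24, HFD 87, normal 2 or normal 4, while the difference stayed between -1.58 and -1.09 over the 11 arrays. Between GC and HFD the difference of Kynu was -0.74 ± 0.23 (SE, limma adjusted p = 0.396, 95% interval -1.26 to -0.23), with groups that overlapped. GC minus normal was -0.91 ± 0.26 (SE, limma adjusted p = 0.0531), with all GC livers below both normal livers. It passed without GC 55 (adjusted p = 0.0148) and without HFD 36 (adjusted p = 0.0476) by limma, and in none of the other 13 settings over the 11 arrays. HFD minus normal was -0.16 with a 95% interval of -0.74 to 0.41. By mean the groups ran QHD, GC, HFD and normal from low to high, and GC and HFD overlapped, as did HFD and normal.

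Kmo, the monooxygenase that hydroxylates kynurenine, had 12.10, 12.36 and 12.10 in the QHD livers, 11.47, 11.73 and 11.57 in the GC livers, 12.22, 11.52 and 11.75 in the HFD livers and 11.95 and 12.04 in the normal livers. Every GC liver lay below every QHD liver and below both normal livers, and the HFD livers spread across this gap. QHD minus GC was 0.59 ± 0.16 (SE, 1.51-fold higher in QHD, limma adjusted p = 0.214) and GC minus normal -0.41 ± 0.18 (SE, limma adjusted p = 0.178), so neither passed. QHD minus HFD was 0.36 ± 0.16 (SE), with groups that overlapped, and it was 0.55 without HFD 24 and 0.20 without HFD 36.

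Aadat, which turns kynurenine into kynurenic acid and also acts on aminoadipate in lysine breakdown, was lowest in GC. Its log2 signal was 12.28, 12.09 and 12.20 in the QHD livers, 11.80, 12.13 and 12.15 in the GC livers, 12.63, 12.26 and 12.43 in the HFD livers and 12.50 and 12.59 in the normal livers. The GC livers lay below all HFD and normal livers, and the QHD livers lay below both normal livers. GC minus normal was -0.52 ± 0.14 (SE, 1.43-fold lower in GC, limma adjusted p = 0.0385). This call was lost without QHD 45, QHD 46, QHD 47, GC 35, GC 37, HFD 87, normal 2 or normal 4, and with quantile normalization (adjusted p = 0.0599). GC minus HFD was -0.41 ± 0.12 (SE, limma adjusted p = 0.374), QHD minus normal -0.35 ± 0.14 (SE, limma adjusted p = 0.136) and QHD minus HFD -0.25 ± 0.12 (SE).

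Haao, the dioxygenase that opens the ring of hydroxyanthranilate, had 12.37, 12.32 and 12.41 in the QHD livers, 12.04, 12.48 and 12.66 in the GC livers, 12.56, 12.15 and 12.44 in the HFD livers and 12.30 and 12.16 in the normal livers. The QHD livers lay inside the range of the GC livers and of the HFD livers, and above both normal livers. QHD minus GC was -0.029 with a 95% interval of -0.36 to 0.31, and HFD minus normal was 0.15 with an interval of -0.22 to 0.53.

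Qprt, which carries quinolinate on towards NAD, had 12.02, 12.18 and 12.35 in the QHD livers, 11.80, 11.89 and 12.52 in the GC livers, 12.27, 12.18 and 12.39 in the HFD livers and 12.32 and 12.25 in the normal livers. GC 55 was the highest of the 11 arrays and GC 35 the lowest, and the groups overlapped in all 6 comparisons on this probe set of highest mean. GC minus HFD was -0.21 with a 95% interval of -0.58 to 0.16, and QHD minus normal was -0.098 with an interval of -0.51 to 0.31.

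Acmsd, the decarboxylase that draws the route away from quinolinate, had the widest spread within the GC, HFD and normal groups. Its log2 signal was 7.96, 7.29 and 7.74 in the QHD livers, 6.91, 8.11 and 7.32 in the GC livers, 7.42, 8.85 and 6.97 in the HFD livers and 9.21 and 8.17 in the normal livers. Both normal livers lay above all QHD and GC livers, and 1 HFD liver lay between them. QHD minus normal was -1.03 ± 0.55 (SE, limma adjusted p = 0.276), GC minus normal -1.24 ± 0.55 (SE, limma adjusted p = 0.186) and HFD minus normal -0.94 ± 0.55 (SE, limma adjusted p = 0.492). The 95% interval of HFD minus normal ran from -2.16 to 0.28, too wide to tell a large difference from none.

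Afmid and Qprt were measured by more than 1 probe set. The 3 probe sets of Afmid gave the same order of group means, QHD, GC, normal and HFD from high to low, and correlated at 0.96 to 0.97 with each other over the 11 arrays. Of these, 1396300_at and 1396301_x_at were designed from the same sequence record and are not independent. QHD minus HFD was 1.70 ± 0.26 on 1396300_at and 1.66 ± 0.19 on 1396301_x_at (SE), beside 1.81 on 1394479_at, which stands for the gene above. In the limma fit of all 12246 single-symbol probe sets past the filter, QHD minus normal was 1.25 ± 0.21 on 1396301_x_at (SE, adjusted p = 0.00963) and 1.05 ± 0.29 on 1396300_at (SE, adjusted p = 0.0571). Unlike on 1394479_at, every HFD liver lay below both normal livers on these probe sets. HFD minus normal was -0.65 ± 0.29 on 1396300_at (SE, limma adjusted p = 0.354, 95% interval -1.29 to -0.014). It was -0.42 ± 0.21 on 1396301_x_at (SE, limma adjusted p = 0.428), where every GC liver also lay above both normal livers. The 2 probe sets of Qprt did not move together, with a correlation of 0.28. The other one, 1382244_at, had 8.93, 8.88 and 8.98 in the QHD livers, 9.08, 9.004 and 9.22 in the GC livers, 9.28, 8.41 and 9.20 in the HFD livers and 9.24 and 9.16 in the normal livers. On it QHD minus GC was -0.17 ± 0.20 (SE, limma adjusted p = 0.824), opposite in sign to 0.11 ± 0.17 on 1372672_at (SE, limma adjusted p = 0.867 in the same fit). All QHD livers lay below all GC livers and both normal livers on 1382244_at. There QHD minus normal was -0.27 ± 0.22 (SE, limma adjusted p = 0.524).

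**Figure D3:**
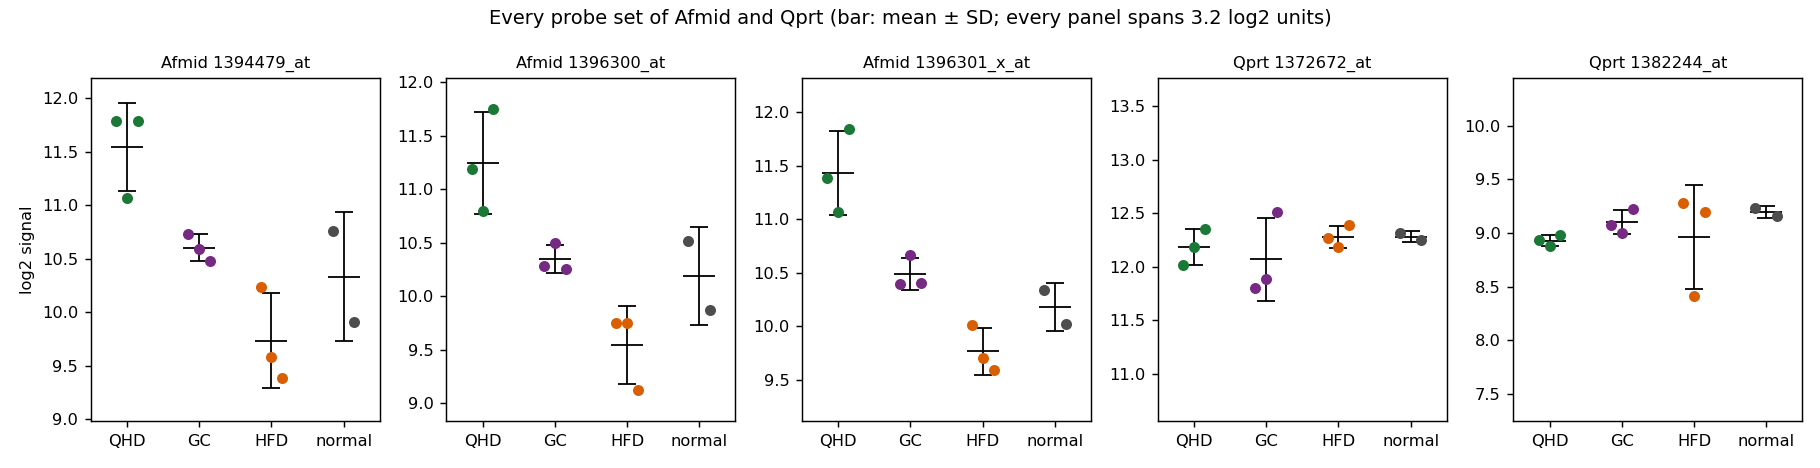
Log2 signal (vertical axis) of the 3 probe sets of Afmid and the 2 of Qprt by group, with animals as points and the mean ± SD as bars. QHD livers have the highest mean on every Afmid probe set, and on Qprt 1382244_at HFD 36 at 8.41 stands below all other livers.

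Markers of other cells and the state of the RNA were set beside these values. Macrophages can also carry Kmo and Kynu, and 13 of 17 macrophage and Kupffer cell markers were measured. Their summed linear signal was 70081 to 82327 in QHD, 85824 to 91478 in GC, 55645 to 93885 in HFD and 49281 to 57818 in normal livers, and none of the 13 was at 0 on any of the 11 arrays. In QHD against normal 2 of the 13 rose, Cd68 and Lyz2, where 7.46% of all genes were called, and in GC against normal 5 did, where 9.61% were, while 0 passed in limma's other 4 comparisons. The sum was higher in all QHD and GC livers than in both normal livers, and Kynu was lower in all of them than in both normal livers. Between QHD and GC, both the sum and Kynu were lower in all QHD livers than in all GC livers. Of the 13 markers, 11 lay below 0 and 2 above in QHD minus GC, and 9 below and 4 above in QHD minus HFD. The 13 measured hepatocyte markers of 15 summed to 345545 to 398871 in QHD, 382495 to 413812 in GC, 382854 to 474896 in HFD and 413848 to 468879 in normal livers. Their median difference was -0.18 between QHD and HFD and -0.21 between QHD and normal, beside -2.11 and -2.27 for Kynu. In both, 13 of 13 lay below 0 and 0 passed by limma. An unadjusted p under 0.05 was found for 3 and 3 of the 13, and for 12.7% and 25.1% of all genes, in that order. Against normal, 3 of 13 is thus close to the background. The 8 measured adipocyte markers of 9 summed to 4157 to 4892 in QHD, 3589 to 4514 in GC, 3816 to 4858 in HFD and 4048 to 4088 in normal livers, and 1 of 4 tested, Fabp4, rose in QHD against normal. The difference of Fabp4 from normal was 2.74 in QHD, 2.56 in GC (limma adjusted p = 0.0519) and 2.25 in HFD (limma adjusted p = 0.175). The fat cell hormones Adipoq and Lep reached at most 5.31 and 3.52, below the filter, and none of the 8 was at 0. The 3′ minus 5′ difference of the Gapdh control probe sets, a sign of RNA integrity, was 0.33 to 0.42 in QHD, 0.34 to 0.54 in GC, 0.33 to 0.63 in HFD and 0.35 to 0.44 in normal livers. For the actin control it was 2.01 to 2.34 in QHD, 1.98 to 2.34 in GC, 2.10 to 2.49 in HFD and 2.52 to 2.63 in normal livers. The part of these values in the differences of Kynu, Afmid and Aadat was not tested.

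Other genes that touch the route were counted from 6 lists, of which 33 genes were tested. Between QHD and HFD 1 of the 33 rose and 0 fell, between QHD and normal 3 rose and 0 fell, and between GC and normal 0 rose and 3 fell. Limma called 0.560%, 7.46% and 9.61% of all genes in these 3 comparisons, in that order, so 3 of 33 against normal is close to the background. In limma's other 3 comparisons 0 of the 33 passed, and 6 had an unadjusted p under 0.05 between GC and HFD, 10 between QHD and GC and 8 between HFD and normal, where 8.76%, 9.98% and 14.4% of all genes did, in that order. Cyp1a1, which passed the filter through the QHD livers, is among the 33, and among the 10 and the 8. The median difference of the 33 was 0.019 between QHD and HFD, beside 0.018 over all genes, and -0.19 between GC and normal, beside 0.052. Nmrk1, a nicotinamide riboside kinase that feeds NAD synthesis outside the tryptophan route, was the gene that rose between QHD and HFD. Its log2 signal was 8.56, 9.02 and 8.91 in the QHD livers, 8.15, 8.22 and 8.45 in the GC livers, 7.60, 8.002 and 7.80 in the HFD livers and 7.88 and 7.79 in the normal livers. The QHD livers lay above all others and the GC livers above all HFD and normal livers. QHD minus HFD was 1.03 ± 0.17 (SE, 2.04-fold, limma adjusted p = 0.0193), and the call was lost without QHD 46, QHD 47, HFD 24 or HFD 87. QHD minus normal was 0.997 ± 0.19 (SE, limma adjusted p = 0.0141), lost without normal 2 or normal 4. Nmnat3, an enzyme of NAD synthesis, fell between GC and normal by 0.76 ± 0.19 (SE, limma adjusted p = 0.0307), a call lost without GC 35, GC 37, normal 2 or normal 4. Nadk2, a mitochondrial NAD kinase, had 0.30 ± 0.10 between QHD and HFD (SE, limma adjusted p = 0.25). The median of the 10 NAD genes tested was 0.14 between QHD and HFD.

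Of 5 other enzymes of the route that were tested, Kyat1 and Kyat3, aminotransferases that also make kynurenic acid, passed in 1 comparison each. Kyat1 had 10.48, 10.55 and 10.39 in the QHD livers, 10.14, 9.90 and 9.84 in the GC livers, 9.96, 9.94 and 9.82 in the HFD livers and 10.13 and 9.76 in the normal livers, with QHD above all others. QHD minus normal was 0.53 ± 0.14 (SE, limma adjusted p = 0.0437), and QHD minus HFD was 0.57 ± 0.12 (SE, limma adjusted p = 0.0766). The call against normal was kept in 5 of 15 other settings over the 11 arrays. It was lost without the filter (adjusted p = 0.0582), with every single-symbol probe set (adjusted p = 0.0503) by limma, and without QHD 45, QHD 46, QHD 47, GC 37, GC 55, HFD 87, normal 2 or normal 4, and without normal 4 the difference was 0.34. Kyat3 had 13.21, 13.21 and 12.92 in the QHD livers, 12.77, 12.87 and 13.14 in the GC livers, 13.39, 13.04 and 13.23 in the HFD livers and 13.75 and 13.54 in the normal livers. It fell between GC and normal by 0.72 ± 0.15 (SE, limma adjusted p = 0.0143), lost without GC 35 or normal 2. Got2, a mitochondrial aminotransferase, had -0.14 ± 0.086 between QHD and HFD (SE, limma adjusted p = 0.541) and -0.084 without QHD 45, and the median of the 5 was -0.10. Ido1, which opens the tryptophan ring in immune cells, lay below the filter, at 2.79 to 4.99 in QHD, 4.68 to 5.24 in GC, 1.42 to 4.98 in HFD and 5.25 to 5.49 in normal livers.

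Kynurenine can bind AHR, and 4 of 9 genes listed for this receptor were tested. Between QHD and HFD 0 of these passed by limma, where 0.560% of all genes did. There 2 had an unadjusted p under 0.05, Cyp1a1 and Cyp1a2, as did 12.7% of all genes. Cyp1a1 is not read, for the reason given below. Cyp1a1, a cytochrome P450 and classic target of AHR, had 10.26, 9.44 and 11.01 in the QHD livers, 6.73, 7.68 and 5.36 in the GC livers, 1.69, 8.13 and 1.02 in the HFD livers and 9.22 and 7.20 in the normal livers. The QHD livers lay above all others, and HFD 36 stood far above the other HFD livers. Its mean over the 11 arrays passed the filter of 6.66 through the QHD livers, since the other 8 livers averaged 5.88, and HFD 24 and HFD 87 lay far under it, so no difference is given. Cyp1a2, a P450 of the same family, had 14.62, 14.73 and 14.64 in the QHD livers, 13.93, 14.34 and 14.09 in the GC livers, 13.94, 14.38 and 13.71 in the HFD livers and 14.61 and 14.58 in the normal livers, and QHD minus HFD was 0.65 ± 0.15 (SE, limma adjusted p = 0.096). Nqo1, a quinone reductase, had 13.23, 12.30 and 12.86 in the QHD livers, 10.51, 12.42 and 12.21 in the GC livers, 11.12, 12.88 and 11.94 in the HFD livers and 10.03 and 9.87 in the normal livers. It rose between QHD and normal by 2.85 ± 0.60 (SE, limma adjusted p = 0.0246), lost without QHD 45, QHD 47, normal 2 or normal 4. Tiparp, an ADP-ribosyltransferase that AHR also induces, had 9.71, 9.69 and 9.76 in the QHD livers, 9.62, 9.36 and 9.78 in the GC livers, 9.67, 9.84 and 9.67 in the HFD livers and 9.33 and 9.63 in the normal livers, with QHD minus HFD at -0.010 ± 0.13 (SE, limma adjusted p = 0.987). Because Cyp1a1 is among the 4, no median of this list is given.

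Tdo2 is known to be induced by glucocorticoids, and 6 genes listed for the response to glucocorticoids and fasting were tested. The receptor, Nr3c1, is among the 6. Tsc22d3, the glucocorticoid-induced leucine zipper protein, had 11.84, 11.82 and 12.60 in the QHD livers, 10.29, 10.29 and 10.63 in the GC livers, 11.99, 10.53 and 11.91 in the HFD livers and 12.06 and 12.99 in the normal livers. It fell between GC and normal by 2.12 ± 0.44 (SE, limma adjusted p = 0.0175), lost without GC 35 or normal 4, while Tdo2 had -0.19 there. Between QHD and HFD 0 of the 6 passed by limma and 0 had an unadjusted p under 0.05, where 0.560% and 12.7% of all genes did, in that order. There Tsc22d3 had 0.61 ± 0.39 (SE, adjusted p = 0.561) and Per1, a clock gene, 1.66 ± 0.86 (SE, adjusted p = 0.456). Without HFD 36, which had 5.10 for Per1 against 8.78 in HFD 24 and 7.87 in HFD 87, the difference was 0.58 for Per1 and 0.13 for Tsc22d3, and without QHD 47 it was 0.35 for Tsc22d3. The list's median was -0.062 between QHD and HFD and -0.76 between GC and normal. Of 8 genes for other fates and transport of tryptophan, 0 passed by limma in any of the 6 comparisons. Between QHD and HFD 1 of the 8 had an unadjusted p under 0.05, as did 12.7% of all genes, and their median was 0.061. There Slc16a10, an aromatic amino acid carrier, had -0.74 ± 0.32 (SE, limma adjusted p = 0.371) and Inmt, an indole methyltransferase, 1.21 ± 0.59 (SE, limma adjusted p = 0.429). The difference of Slc16a10 was -0.41 without HFD 24, and that of Inmt 0.65 without QHD 46 and 2.06 without QHD 47. Of the 3 genes listed for vitamin B6 phosphate supply, 0 had a probe set annotated to exactly 1 symbol, so that list added no tested gene.

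**Figure D4:**
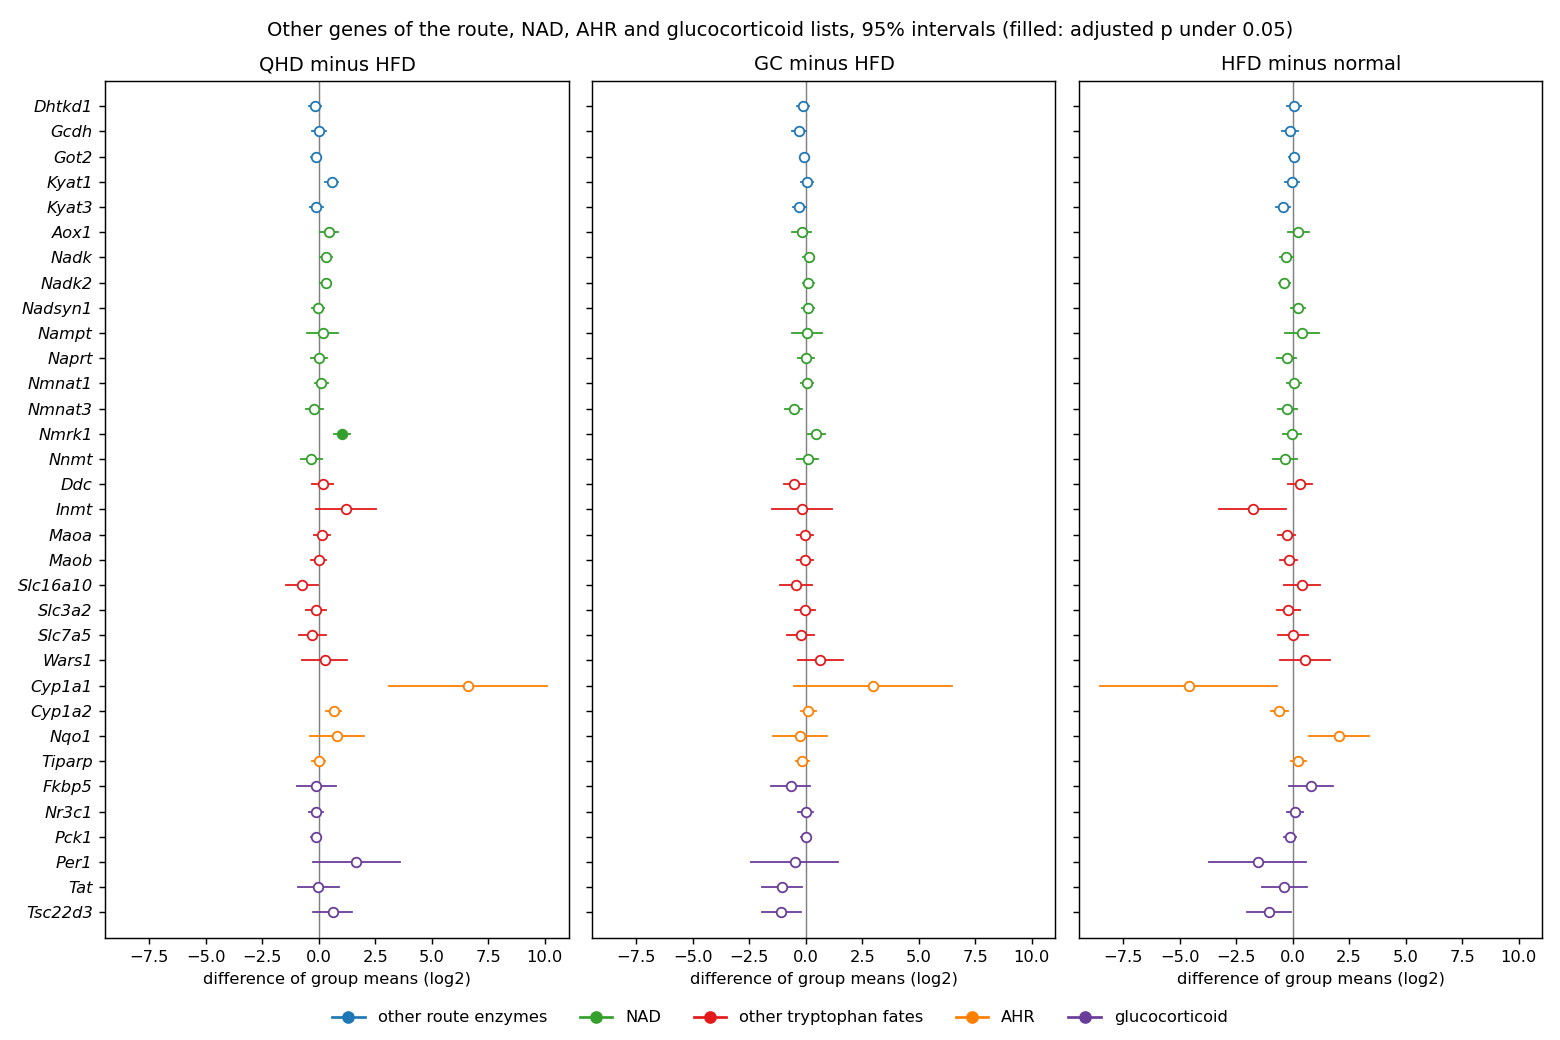
Differences of group means (horizontal axis, log2) with 95% intervals for the tested genes of the lists (rows), for QHD minus HFD, GC minus HFD and HFD minus normal. Filled points passed at an adjusted p under 0.05, and Nmrk1 at 1.03 in QHD minus HFD is the only one. The values of Cyp1a1 rest on HFD signals under the filter on 2 of 3 arrays and are not read.

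Genes whose signals followed Kynu most closely over the 11 arrays were Mreg, Rmdn2, Gckr, Ulk1 and Cd164, with Pearson's r of 0.99, 0.97, 0.96, 0.96 and 0.95, in that order. Gckr, the regulatory protein of glucokinase, averaged 10.05 ± 0.15 in QHD, 11.39 ± 0.24 in GC, 11.995 ± 0.14 in HFD (SD, n = 3 each) and 12.03 ± 0.23 in normal livers (SD, n = 2). Mreg, melanoregulin, averaged 12.40 ± 0.065 in QHD, 13.12 ± 0.26 in GC, 13.43 ± 0.042 in HFD (SD, n = 3 each) and 13.62 ± 0.25 in normal livers (SD, n = 2). Both had the order of group means that Kynu had. Closest to Afmid were Mycbp, Mrpl50, Cdc123, Clptm1 and Prdx6, with r of 0.96, 0.96, 0.95, 0.94 and 0.94, in that order. Prdx6, a peroxiredoxin, averaged 12.97 ± 0.14 in QHD, 12.73 ± 0.068 in GC, 12.53 ± 0.056 in HFD (SD, n = 3 each) and 12.65 ± 0.065 in normal livers (SD, n = 2). Kynu and Afmid correlated at -0.86 over the 11 arrays, and Tdo2 and Aadat at 0.73. The arrays share groups, and the named genes are the top of 9459 once placeholder symbols (LOC, RGD, MGC or Rik) were left out. These values therefore only describe likeness of pattern.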

How the data were processed

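Per the submitters' processing notes, which give no versions, the authors used MAS5 and Affymetrix Expression Console to make the signals, from 6 µg of total RNA per the labels' protocols. The deposited values are log2 signals, and a further deposited table held identical values. On the linear scale their mean, with 2% trimmed at each end, was 500 on each array. The authors' deposited p-values and fold changes were not used.

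Of 31099 probe sets, 20832 carried 1 symbol in GEO's platform annotation, 436 several and 9831 none. A linear model with 1 mean per group (limma 3.58.1, R 4.3.3, trend and robust moderation, 7 residual degrees of freedom) was applied to 9459 genes. SE and 95% intervals are moderated. The labels name animals by number and no batch. Members, lists and tests were chosen with earlier results of these data known. All members were named, and of the lists each gene that passed, with the 2 of smallest p between QHD and HFD where fewer did, and the 5 genes of highest r for Kynu and Afmid. Symbols starting with LOC, RGD or MGC or ending in Rik were left out of the ranking by r. Ido1, Fabp4 and Tiparp were named after their values were seen. The alternatives were all 12 arrays, no filter, quantile normalization, 32 added to linear signals, every single-symbol probe set, and leaving out each array. On simulated signals of 9459 genes with 200 changed, changes of log2 size 1 were found at 74.8% for QHD minus HFD, 73.6% for GC minus HFD, 69% for HFD minus normal, 70.4% for QHD minus GC, 67% for QHD minus normal and 66.2% for GC minus normal, and those of size 2 at 92.2% to 95.8%. False calls made up 4.14% to 5.66% of the calls. Noise was drawn independently for each gene and array, with the estimated SD taken as true. Variation that genes of an array share was not simulated, so these rates hold for such signals only. Figures were drawn with matplotlib 3.10.9.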

Additional observations from a re-analysis of the deposited data

Results flagged for a closer look

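The array labelled normal 3, which enters no comparison, had a median log2 signal of 14.12 over the adipocyte markers, above the levels of the other normal livers.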

How the results depend on the processing

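With normal 3 included, the differences against normal turned sign for many members, to Tdo2 3.03, Afmid 0.48, Kmo 1.78, Kynu 2.86, Aadat 1.90, Acmsd 1.01 and Qprt 1.16 in HFD minus normal, to Tdo2 2.92, Kynu 0.75, Aadat 1.65, Acmsd 0.92 and Qprt 1.06 in QHD minus normal and to Tdo2 2.91, Kmo 1.54, Kynu 2.11, Aadat 1.49, Acmsd 0.71 and Qprt 0.95 in GC minus normal, and Kyat3 in GC minus normal was 0.85. These values follow from that array, on which every member was lower. In that fit limma called 0 genes for HFD minus normal, 0 for QHD minus HFD, 0 for GC minus HFD and 0 for QHD minus GC, 4 for QHD minus normal and 65 for GC minus normal, and 0, 0 and 0 members in the 3 comparisons that had called any. With every single-symbol probe set 0 members passed for QHD minus GC, where Kynu had a limma adjusted p = 0.0507. With quantile normalization 0 passed for GC minus normal, and Qprt in HFD minus normal was 0.037. Leaving out 1 array at a time, 12 to 309 genes were called for HFD minus normal, 18 to 162 for QHD minus HFD, 0 to 126 for GC minus HFD, 6 to 59 for QHD minus GC, 135 to 1042 for QHD minus normal and 164 to 1271 for GC minus normal. The number of members called was 0 to 1 for QHD minus GC, 1 to 2 for QHD minus normal and 0 to 2 for GC minus normal. Some members near 0 changed sign in that range. For HFD minus normal it was -0.057 to 0.047 for Qprt, -0.24 to 0.090 for Tdo2 and -0.41 to 0.081 for Kynu. For GC minus HFD it was -0.12 to 0.19 for Haao, -0.28 to 0.055 for Tdo2 and -0.69 to 0.25 for Acmsd. For QHD minus GC it was -0.087 to 0.064 for Tdo2, -0.054 to 0.55 for Acmsd, -0.018 to 0.34 for Qprt and -0.20 to 0.10 for Haao. For GC minus normal it was -0.16 to 0.70 for Afmid. For QHD minus HFD it was -0.48 to 0.46 for Acmsd, -0.27 to 0.067 for Tdo2 and -0.13 to 0.074 for Haao. The cause was not tested. Without the filter on dim probe sets and with 32 added to the linear signals, no call for a member changed, though Kyat1 no longer passed for QHD minus normal without the filter or with every single-symbol probe set. No paired analysis was possible because the groups share no animal numbers. Signals of Acmsd were the nearest to the filter, and 2 normal livers limit each comparison with normal.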
